A study of Mus musculus with 8 samples.

Results

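Gdf15, Plk3 and Atf3, 3 stress-inducible genes among 49868 named loci of the deposited gene table, were followed in mesenchymal stem cells (MSc) with and without the genes for hyaluronan synthesis. They were picked by their exact names, after their differences between the genotypes had been seen. The 4 Has-tKO libraries come from mice with a constitutive knockout of Has1 and Has3 and a Cre-dependent knockout of Has2, and the 4 wildtype libraries from C57Bl6/J mice. MSc came from femurs and tibiae, each library from a separate mouse, and were kept for 4 passages. Both genotypes received 4-hydroxytamoxifen for 48 h in passages 2 and 3, which in Has-tKO cells switches on Cre and deletes Has2. Both genotypes were then differentiated towards bone and sampled on day 7 of osteogenic medium. Cells of the wildtype mice thus share the drug and the medium with Has-tKO cells, and a Cre in wildtype is not described in the labels. No source used here gives the promoter that drives the Cre, the age of the mice or the deleted part of each Has gene.

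Hyaluronan is a long sugar chain of the matrix around cells, made at the cell surface by 3 synthases, Has1, Has2 and Has3. Gdf15 is a distant member of the TGF-beta superfamily that stressed cells secrete, and it signals through Gfral and its co-receptor Ret in the hindbrain to lower food intake. Atf3 is a bZIP transcription factor of the ATF/CREB family that is nearly silent at rest, is induced by many stresses and by Toll-like receptor signals, and restrains inflammatory genes in macrophages. Plk3 is a Polo-like kinase that, unlike Plk1, is linked less to mitosis than to DNA damage and other stress, and is itself induced early after growth factors and stress. All 3 genes are known as targets of p53 in some settings, and Atf3 and Gdf15 also as targets of the integrated stress response, in which eIF2 kinases raise the transcription factor Atf4.

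Levels are FPKM as deposited, a fragment count normalised for the length of the transcript and the size of the library, and n is 4 per genotype. How deeply each library was sequenced is unknown, and 8327 to 10357 named loci per library reached 1 FPKM. Wildtype 1 stood apart, with 61.5% of its FPKM on unnamed loci and 30.4% on a single locus, so results are also given after median-ratio scaling, which divides each library by a size factor (0.660 in wildtype 1, 0.984 to 1.14 in the other 7). Of the targeted genes Has3 alone carried a name, at 0.503 ± 0.238 FPKM in Has-tKO and 0.378 ± 0.0995 FPKM in wildtype (SD, n = 4 each, exact permutation p = 0.371, two-sided), which checks no label. Stromal and bone cell markers were present in every library, among them Cxcl12 (means of 223 and 223 FPKM in Has-tKO and wildtype), Alpl (67.4 and 121 FPKM) and Ibsp (147 and 296 FPKM), and so were macrophage markers.

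Gdf15 was listed at 9.19, 7.78, 8.36 and 8.49 FPKM in Has-tKO 1 to 4, against 1.80, 1.85, 4.46 and 1.67 FPKM in wildtype 1 to 4. The Has-tKO libraries lay close together, wildtype 3 lay well above the other wildtype libraries, and the lowest Has-tKO library was 1.75 times the highest wildtype library. The means were 8.45 ± 0.575 FPKM in Has-tKO and 2.45 ± 1.35 FPKM in wildtype (SD, n = 4 each), a ratio of 3.46. The fitted log2 fold change of Gdf15 (Has-tKO minus wildtype, on log2(FPKM + 1)) was 1.52 with an SE of 0.22, and 1.31 with an SE of 0.20 after scaling.

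Plk3 was listed at 10.6, 5.51, 7.58 and 6.53 FPKM in Has-tKO 1 to 4, against 2.13, 1.17, 3.41 and 1.56 FPKM in wildtype 1 to 4. Has-tKO 1 was the highest of its group and wildtype 3 the highest of the other, and the groups did not overlap. The means were 7.56 ± 2.22 FPKM in Has-tKO and 2.07 ± 0.980 FPKM in wildtype (SD, n = 4 each), a ratio of 3.66. Plk3 was the most variable of the 3 genes among Has-tKO libraries, with a coefficient of variation of 29.4%, against 6.80% for Gdf15 and 18.8% for Atf3. Its fitted log2 fold change was 1.50 with an SE of 0.24, and 1.28 with an SE of 0.26 after scaling.

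Atf3 was the most abundant of the 3 per length, at 22.0, 14.6, 20.6 and 16.6 FPKM in Has-tKO 1 to 4, against 8.44, 8.32, 8.93 and 7.70 FPKM in wildtype 1 to 4. Its wildtype libraries were nearly level, with a coefficient of variation of 6.06%, where Gdf15 had 55.0% and Plk3 47.4%. The means of Atf3 were 18.4 ± 3.46 FPKM in Has-tKO and 8.35 ± 0.506 FPKM in wildtype (SD, n = 4 each), a ratio of 2.21. Its fitted log2 fold change was 1.04 with an SE of 0.17, and 0.80 with an SE of 0.18 after scaling. Scaling raised the Atf3 level of wildtype 1 to 12.8 FPKM, just above the lowest scaled Has-tKO value of 12.7 FPKM in Has-tKO 2. For this gene the scaled groups thus overlapped. Ranked by FPKM among the named loci of its own library, which no scaling can change, Atf3 stood at place 765 to 1324 in Has-tKO and 1560 to 2478 in wildtype. By the same ranking Gdf15 stood at place 2311 to 2786 in Has-tKO and 4370 to 7898 in wildtype, and Plk3 at 1947 to 3832 in Has-tKO and 5396 to 9413 in wildtype.

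**Figure D1:**
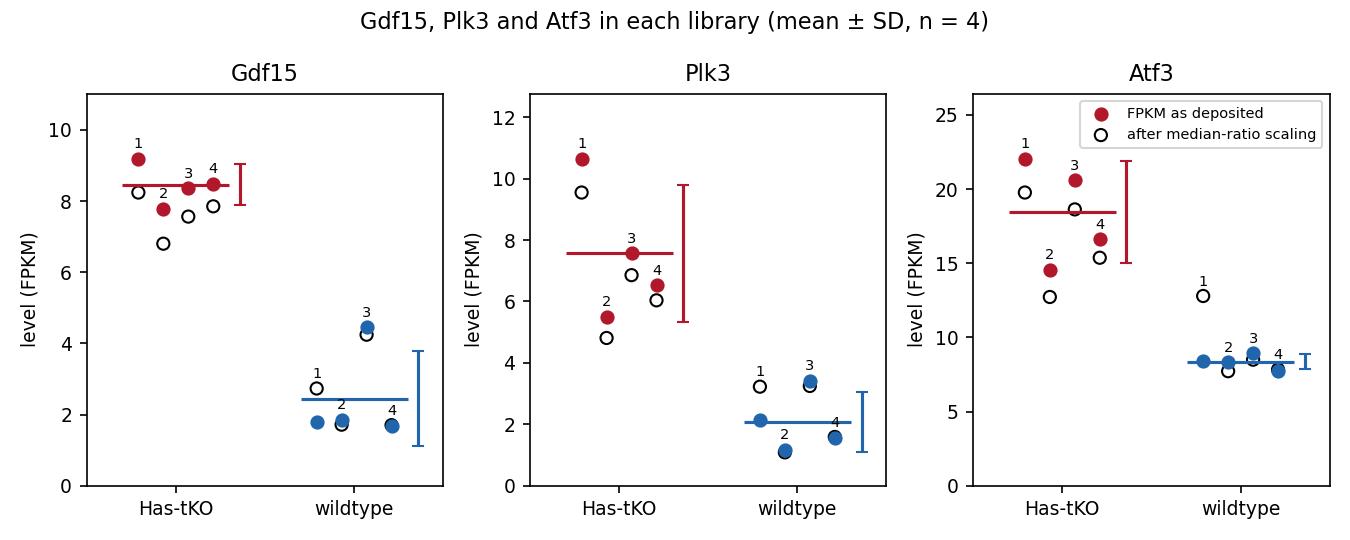
Levels of Gdf15, Plk3 and Atf3 in FPKM (vertical axes from 0) in the 4 Has-tKO and 4 wildtype libraries, with replicate numbers. Filled points are values as deposited, open circles the same after median-ratio scaling, lines the means and bars ± SD of the deposited values. Each Has-tKO library lies above each wildtype library for all 3 genes as deposited, and for Atf3 wildtype 1 lies just above Has-tKO 2 after scaling.

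Because the 3 genes were chosen by this contrast, these differences are a description and carry no test. In the linear model over all 9916 tested genes (limma, adjusted p threshold 0.05) 176 genes changed, 1.77% of those tested, 157 higher and 19 lower in Has-tKO, and all 3 genes were among the higher ones (1.58% of those tested). After scaling 135 genes were higher and 128 lower (2.65% in all, 1.36% higher and 1.29% lower), and Gdf15 and Plk3 but not Atf3 were among the higher ones. All 4 Has-tKO libraries lay above all 4 wildtype libraries for 12.0% of tested genes, and for 5.64% after scaling. By size of the log2 fold change Gdf15 ranked 20, Plk3 21 and Atf3 131 among the 9916 genes, whose median was 0.16, and -0.03 after scaling. None of the 3 genes was called without Has-tKO 1 or without wildtype 4, when 12 and 10 genes in all were called, or with no filter on low values, when 2 were.

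With 1 library left out, the log2 fold change ranged from 1.42 to 1.77 for Gdf15, from 1.34 to 1.69 for Plk3 and from 0.95 to 1.14 for Atf3. The highest value for Gdf15 and for Plk3 came without wildtype 3, the library with the most of both among wildtype.

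The sequences before the start sites are shown because the 3 genes were higher together and 2 of them share a match to the same factor family. The 250 bases before each RefSeq start (mouse build GRCm38.p6, all on the minus strand, not the GRCm39 named in the submitters' processing notes) are given 5′ to 3′ for Atf3 (chr1:191183334-191183583), Plk3 (chr4:117133964-117134213) and the outer of the 2 Gdf15 starts (chr8:70632457-70632706). Capitals mark matches to TGACGTAA, a variant of the cAMP response element that ATF and CREB factors bind, or to TGATGNAAN, the C/EBP-ATF element of Atf4 targets, on either strand.
Atf3: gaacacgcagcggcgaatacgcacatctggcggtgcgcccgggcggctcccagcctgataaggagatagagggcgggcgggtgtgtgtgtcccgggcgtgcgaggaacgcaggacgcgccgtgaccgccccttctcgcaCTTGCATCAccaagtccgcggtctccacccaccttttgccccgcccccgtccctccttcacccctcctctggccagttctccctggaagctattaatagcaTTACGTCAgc
Plk3: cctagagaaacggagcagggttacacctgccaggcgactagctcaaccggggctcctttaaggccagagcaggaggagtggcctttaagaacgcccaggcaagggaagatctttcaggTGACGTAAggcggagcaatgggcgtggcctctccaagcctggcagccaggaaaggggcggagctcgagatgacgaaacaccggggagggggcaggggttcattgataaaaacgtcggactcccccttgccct
Gdf15: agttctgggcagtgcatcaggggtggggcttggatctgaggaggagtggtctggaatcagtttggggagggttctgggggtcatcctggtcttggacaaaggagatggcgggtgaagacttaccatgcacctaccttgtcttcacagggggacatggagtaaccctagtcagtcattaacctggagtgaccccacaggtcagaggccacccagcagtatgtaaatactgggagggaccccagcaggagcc

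TGACGTAA occurred in the Atf3 window, 10 to 3 bases before the start on the opposite strand, and in the Plk3 window, 132 to 125 bases before the start. Of 32851 such windows of mouse genes, 147 (0.447%) held it on either strand. The motifs were chosen with the sequences of these 3 genes in view, so this share does not measure how unusual the matches are. TGATGNAAN occurred in the Atf3 window, 111 to 103 bases before the start on the opposite strand, and in 3.44% of all windows. Neither sequence was found before the 2 Gdf15 starts. The Gdf15 window of the inner start, which lies in the first exon of the longer transcript and is not printed, held a CACGTG E-box (6.02% of windows) and a CCAAT box (33.8%), and that of the outer start held none of the 11 motifs searched. GGGCGG occurred 5 times in the Atf3 window and once in that of Plk3 (32.7% of windows). The full TGACGTCA (1.55% of windows), the AP-1 site TGANTCA (6.75%), the Egr site GCGNGGGCG (4.70%) and the p53 half-site, NF-kappaB and serum response motifs (7.13%, 7.25% and 1.47%) were in none of these windows. The 2 GGGCGG matches nearest each other in the Atf3 window overlap, and the motifs were searched on both strands. A match is a description of the letters, not of binding.

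No neighbouring gene that could be tested was called, where 1.77% of all tested genes were. On chromosome 8 the closest protein-coding genes in the RefSeq table were Lrrc25, a leukocyte membrane protein (10.3 and 6.93 FPKM in Has-tKO and wildtype, log2 fold change 0.53, SE 0.27, limma adjusted p = 0.341), and Pgpep1, a peptidase (6.35 and 5.91 FPKM, 0.12, SE 0.18, adjusted p = 0.778). On chromosome 1 Nenf, a secreted neurotrophic factor, lay beyond Atf3 (27.0 and 39.5 FPKM, -0.46, SE 0.31, adjusted p = 0.477), and Fam71a was listed at means of 0.0859 and 0 FPKM. On chromosome 4 the RefSeq gene of Plk3 overlaps the end of Dynlt4 by 84 bases, and without strand information reads there cannot be told apart. Dynlt4 was at means of 0.473 FPKM in Has-tKO and 0.128 FPKM in wildtype, too low to be tested. In the same RefSeq table Has3, one of the knocked-out genes, is also on chromosome 8, as is Gdf15, and a part of that in the Gdf15 level was not tested.

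Relatives and partners of the 3 genes gave no calls in the Polo-like kinase, receptor and GDF lists. The share called over all tested genes was 1.77%, and for lists this short 0 calls is near that share. Of the other Polo-like kinases 0 of 3 tested were called by limma, with or without scaling, and 1 had an unadjusted p under 0.05, a threshold that 14.4% of all tested genes passed higher and 2.30% lower in Has-tKO. Plk2, a close relative of Plk3, had 7.72 ± 1.42 FPKM in Has-tKO and 4.19 ± 1.45 FPKM in wildtype (log2 fold change 0.78, SE 0.23, adjusted p = 0.104). Plk1, the mitotic kinase, had 4.11 ± 0.416 and 3.24 ± 1.31 FPKM (0.33, adjusted p = 0.499), and Plk4, which governs centriole duplication, 1.25 ± 0.388 and 1.18 ± 0.554 FPKM (0.07, adjusted p = 0.898). Plk5 was listed at means of 0 and 0.0076 FPKM.

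Gfral, the receptor of Gdf15, was listed at 0 in all 8 libraries. Ret, its co-receptor, was too low for the test at 1.17 ± 0.214 FPKM in Has-tKO and 0.431 ± 0.116 FPKM in wildtype. Of the proprotein convertases, a family of proteases that cut secreted precursors, 0 of 3 tested were called by limma and none had an unadjusted p under 0.05. Furin, another convertase of this list, carried no name and was not tested. Pcsk7 had 5.56 ± 0.676 and 4.44 ± 0.486 FPKM (log2 fold change 0.27, adjusted p = 0.394), Pcsk5 1.53 ± 0.549 and 1.75 ± 0.305 FPKM (-0.14, adjusted p = 0.733), and Pcsk6 5.62 ± 0.439 and 5.44 ± 0.863 FPKM (0.05, adjusted p = 0.899) in Has-tKO and wildtype. Of 9 other named GDF ligands only Gdf10 and Gdf11 were high enough to test. Gdf11 had 2.37 ± 0.771 and 3.43 ± 0.670 FPKM (-0.41, adjusted p = 0.320) and Gdf10 5.15 ± 1.51 and 4.42 ± 1.08 FPKM (0.16, adjusted p = 0.737).

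The 13 lists of pathway genes that surround the 3 genes hold 207 genes, of which 182 carried a name and 157 were tested, and 18 rose and 1 fell. All these lists were chosen with earlier results of these data known, so their counts are a description. Over all 9916 tested genes, 1.58% were higher and 0.192% lower at the adjusted threshold. With 1 library left out the calls over all tested genes were 12, 70, 115 and 60 without Has-tKO 1 to 4 and 349, 72, 345 and 10 without wildtype 1 to 4. Of 26 tested ATF4 and integrated stress response targets 1 rose, the cystine transporter Slc7a11 (5.32 ± 0.748 FPKM in Has-tKO and 1.54 ± 1.20 FPKM in wildtype, log2 fold change 1.42, SE 0.27, limma adjusted p = 0.0268). Vldlr, a lipoprotein receptor, fell (3.48 ± 0.624 and 8.17 ± 1.48 FPKM, -1.03, SE 0.18, adjusted p = 0.0181). The median log2 fold change of this list was 0.05, against 0.16 over all tested genes, and -0.18 against -0.03 after scaling. Of the 26, 15 had a positive log2 fold change. At an unadjusted p under 0.05, 2 were higher and 3 lower, against 14.4% and 2.30% of all tested genes. After scaling 1 was higher and 7 lower at that threshold. Of the genes not called, Cebpb had the smallest p (57.4 ± 9.63 and 34.3 ± 7.28 FPKM, 0.74, limma adjusted p = 0.0767). The list genes Ddit3 and Asns carried no name, so they were not tested. Atf4 itself had 28.0 ± 2.06 and 23.8 ± 3.11 FPKM (0.23, adjusted p = 0.471), and the Atf4 targets Trib3 (4.64 ± 0.906 and 5.13 ± 0.472 FPKM, -0.13, adjusted p = 0.714) and Chac1 (2.19 ± 0.556 and 2.30 ± 0.454 FPKM, -0.06, adjusted p = 0.893) were not called. These last 3 and Cebpb were chosen after their values were seen. Without 1 library the list had 0 calls (without Has-tKO 1, Has-tKO 4 or wildtype 4), 1 (without Has-tKO 2, Has-tKO 3 or wildtype 2), 2 (without wildtype 3) or 4 (without wildtype 1).

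Of 23 tested p53 targets 0 were called by limma, with a median of 0.17, where 1.77% of all tested genes were called. For a list of this length 0 calls is near that share. At an unadjusted p under 0.05, 4 were higher and 0 lower, against 14.4% and 2.30% of all tested genes. The antiproliferative Btg2 had the smallest p (13.6 ± 1.50 and 8.30 ± 1.85 FPKM in Has-tKO and wildtype, 0.67, SE 0.18, adjusted p = 0.0847). Cdkn1a, the cell cycle inhibitor that p53 is best known to induce, had 68.3 ± 9.60 and 59.0 ± 2.83 FPKM (0.20, SE 0.15, adjusted p = 0.535), and Mdm2, the ligase that degrades p53, 14.8 ± 2.37 and 9.91 ± 1.51 FPKM (0.53, adjusted p = 0.138). These last 2 were chosen after their values were seen. Without wildtype 1, 1 target was called, when 349 of all tested genes were. Of 15 tested DNA damage checkpoint genes 0 were called by limma (median 0.13, 1 higher at an unadjusted p under 0.05), the smallest p being that of Trp53, the gene of p53 (4.08 ± 0.291 and 2.37 ± 0.293 FPKM, 0.60, SE 0.14, adjusted p = 0.0580), and next Rad9a, a checkpoint clamp subunit (0.33, adjusted p = 0.300). Without wildtype 1, 1 checkpoint gene was called, in the same fit of 349 calls.

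Of 18 tested genes of the unfolded protein response of the endoplasmic reticulum 0 were called by limma (median 0.18, 5 higher and 0 lower at an unadjusted p under 0.05, against 14.4% and 2.30% of all tested genes), and 2 were called without wildtype 1, when 349 of all tested genes were. The share called over all tested genes was 1.77% in the main fit, and for lists of this length 0 calls is near that share. The chaperone partners Sdf2l1 (10.8 ± 1.76 and 6.53 ± 1.45 FPKM, 0.66, adjusted p = 0.0926) and Hyou1 (25.6 ± 1.24 and 16.9 ± 4.14 FPKM, 0.60, adjusted p = 0.131) had the smallest p. Of 13 tested eIF2 kinases, phosphatases and their regulators 0 were called (median 0.26, 2 higher at an unadjusted p under 0.05), with Eif2s1, a subunit of eIF2 itself (0.53, adjusted p = 0.245), and Eif2b3, a subunit of its exchange factor (0.36, adjusted p = 0.289), at the smallest p. Of 8 tested heat shock genes 0 were called and none had an unadjusted p under 0.05 (median 0.20), with the co-chaperones Dnajb1 (0.46, adjusted p = 0.329) and Hsph1 (0.38, adjusted p = 0.361) at the smallest p.

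Of 15 tested NRF2 antioxidant targets 2 rose, Slc7a11 and Gclc, the catalytic subunit of the enzyme that starts glutathione synthesis (10.6 ± 0.892 and 4.61 ± 2.08 FPKM in Has-tKO and wildtype, log2 fold change 1.13, SE 0.24, adjusted p = 0.0404), and 3 rose after scaling. Over all tested genes 1.58% were higher at the adjusted threshold, and 1.36% after scaling. The median of the list was 0.57, against 0.16 over all tested genes. At an unadjusted p under 0.05, 8 of the 15 were higher and 0 lower, against 14.4% and 2.30% of all tested genes. After scaling 5 were higher and 1 lower at that threshold. No NRF2 target passed the adjusted threshold without any one of Has-tKO 1 to 4, wildtype 2 or wildtype 4, 3 were called without wildtype 1, and 6 without wildtype 3.

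Among the ATF, CREB, AP-1 and related bZIP factors, the family of possible partners of Atf3, 3 of 18 tested rose and none fell (median 0.30). Over all tested genes 1.58% were higher at the adjusted threshold. Junb, an AP-1 subunit, rose to 40.3 ± 8.85 FPKM in Has-tKO, against 16.0 ± 2.06 FPKM in wildtype (log2 fold change 1.27, SE 0.18, adjusted p = 0.0111). The small Maf factor Maff rose to 4.35 ± 1.09 FPKM, against 1.33 ± 0.223 FPKM (1.18, SE 0.18, adjusted p = 0.0136). Fosl1, an AP-1 subunit, rose to 2.50 ± 0.447 FPKM, against 0.944 ± 0.446 FPKM (0.87, SE 0.19, adjusted p = 0.0478), a call that was lost on scaling (0.72, adjusted p = 0.0659). None of the family was called without Has-tKO 1 or wildtype 4, and 5 were called without wildtype 1.

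The 2 lists with the most calls were immediate early genes, transcribed within minutes of a stimulus, and NF-kappaB targets. Both lists were chosen with earlier results of these data known, so their counts are a description and carry no test. Over all tested genes 1.58% were higher at the adjusted threshold, and 1.36% after scaling. Of 19 tested immediate early genes 8 rose and none fell (median 0.74), and 6 rose after scaling. Junb, Maff and Fosl1 are counted both here and among the bZIP factors. The zinc finger factors Egr2 (6.18 ± 2.11 and 0.822 ± 0.128 FPKM in Has-tKO and wildtype, 1.93, adjusted p = 0.00226), Egr1 (8.07 ± 0.825 and 1.93 ± 0.866 FPKM, 1.68, adjusted p = 0.00633) and Egr3 (1.14, adjusted p = 0.0127) led with Junb and Ier2 (1.15, adjusted p = 0.0127). Of 10 tested NF-kappaB targets 8 rose (median 1.26), and 9 after scaling, led by the chemokines Cxcl2 (1.72) and Ccl2 (2.40), the inhibitor Nfkbie (1.49), the adhesion molecule Icam1 (1.48) and the subunit Nfkb2 (1.14). Without Has-tKO 1 or wildtype 4, 2 immediate early genes and 4 NF-kappaB targets were called. Egr1, Egr2, Cxcl2, Ccl2, Nfkbie and Icam1 were called in all 8 fits with 1 library left out.

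**Figure D2:**
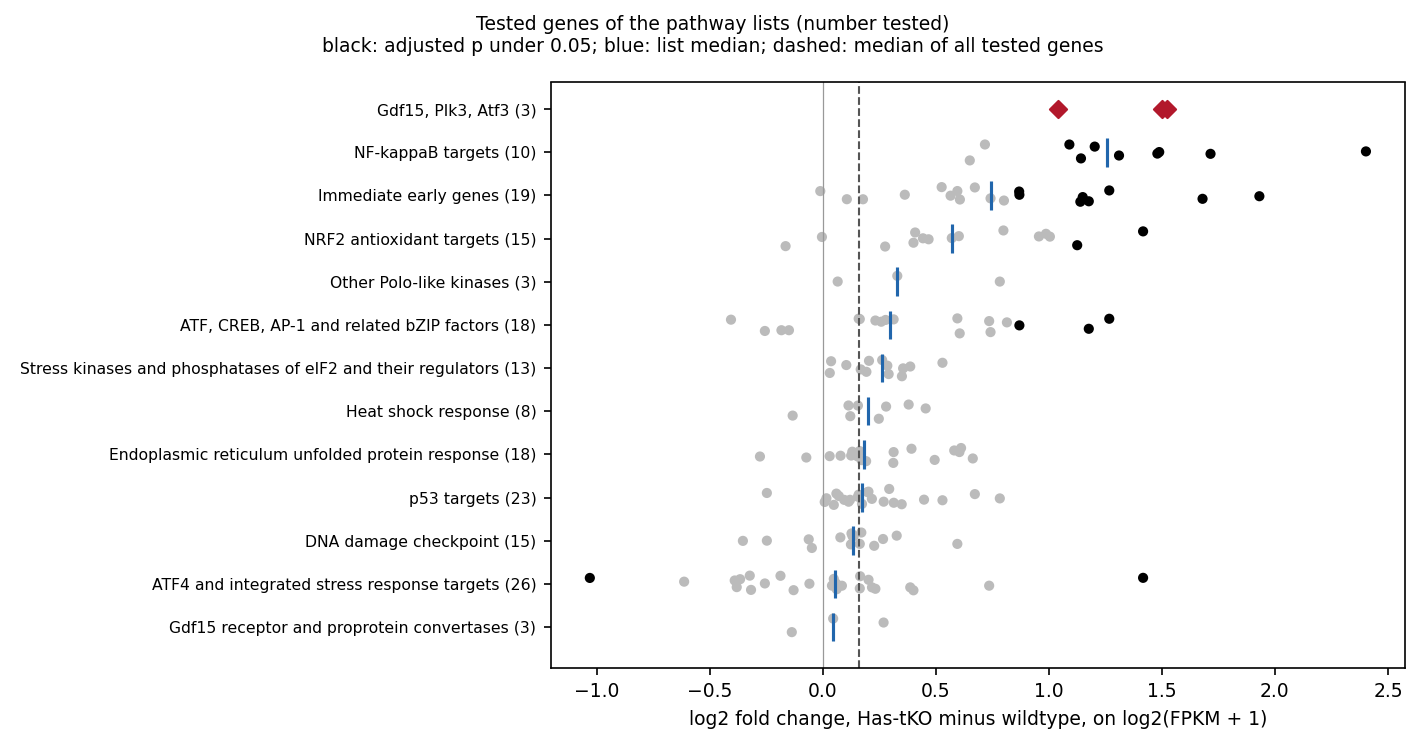
Log2 fold change (Has-tKO minus wildtype, horizontal axis) of each tested gene in the 12 pathway lists with at least 3 tested genes, below the 3 chosen genes (red diamonds). Black points passed an adjusted p of 0.05, grey points did not, blue lines are list medians and the dashed line is the median of all tested genes (0.16). The list medians run from 0.05 to 1.26, and the place of the 3 genes follows from how they were chosen.

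Of 21 markers of macrophages and other myeloid cells 18 carried a name, none at 0 in all 8 libraries, and 17 were tested. By the limma adjusted p 3 rose, Cx3cr1, Cd52 and Spi1, against 1.58% higher over all tested genes. Of these Cx3cr1 alone passed after scaling. All 17 had a positive log2 fold change (median 1.01, against 0.16 over all tested genes). At an unadjusted p under 0.05, 17 were higher (13 after scaling), against 14.4% of all tested genes. The summed level of the 18 markers was 1116, 834, 689 and 1072 FPKM in Has-tKO 1 to 4, against 404, 441, 698 and 409 FPKM in wildtype 1 to 4 (exact permutation p = 0.0571, two-sided, adjusted over 8 cell type lists p = 0.114). In these bulk samples, more cells of a type and more RNA per cell cannot be told apart. Has-tKO 3 had the lowest sum of its group, below wildtype 3, so that the genotypes overlapped in this sum. Wildtype 3 was the highest wildtype library in the sum and in Gdf15 and Plk3. It was so for Atf3 as deposited (8.93 FPKM), but not after scaling, when wildtype 1 had 12.8 FPKM and wildtype 3 had 8.49 FPKM of Atf3. The part of these cells in the levels of the 3 genes was not tested.

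**Figure D3:**
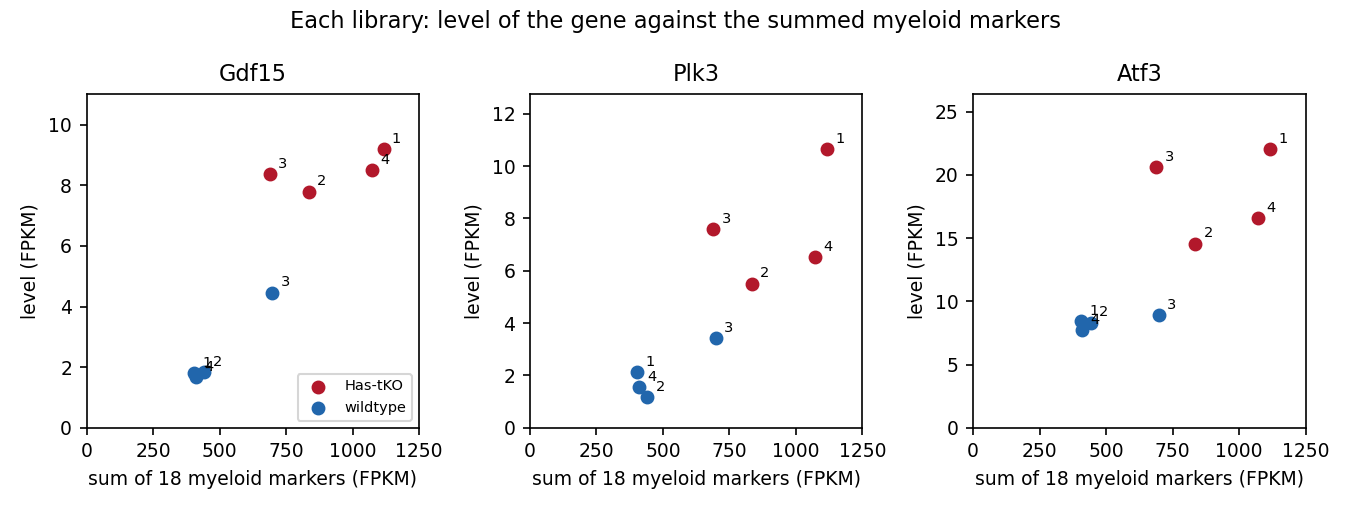
Level of Gdf15, Plk3 and Atf3 in FPKM (vertical axes) against the sum of 18 macrophage and other myeloid markers in FPKM (horizontal axes), 1 point per library with its replicate number. The sums run from 689 to 1116 FPKM in Has-tKO and from 404 to 698 FPKM in wildtype, and Has-tKO 3 and wildtype 3 overlap on that axis.

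Neutrophil and lymphocyte markers summed to at most 0.753 FPKM in Has-tKO and 0.585 FPKM in wildtype, and 5 of 10 were at 0 in all 8 libraries, among them Cd3e and Elane. Endothelial markers summed to 1.42 to 2.39 FPKM in Has-tKO and 0.812 to 1.16 FPKM in wildtype (exact permutation p = 0.0286, the smallest that 4 against 4 allows, adjusted p = 0.114). Adjusted over 8 lists, p could go under 0.05 only if most lists reached that limit together. Osteoblast markers summed to 177 to 262.3 FPKM in Has-tKO and 254 to 539 FPKM in wildtype, and osteoclast markers to 20.1 to 43.7 and 30.2 to 104 FPKM (exact permutation p = 0.0571 and adjusted p = 0.114 for each). Chondrocyte (adjusted p = 0.381), adipocyte (adjusted p = 0.381) and stromal markers (adjusted p = 0.771) gave no sum that passed an exact permutation test, although 2 of 6 tested chondrocyte genes, Col9a1 and Col10a1, fell in Has-tKO in the limma fit.

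The genes with the most similar profiles over the 8 libraries were sought among 8535 tested genes with established symbols, by the root mean square difference of log2(FPKM + 1) after each gene's mean was taken off. Closest to Gdf15 were Lmo2, a transcriptional cofactor of blood cell development (0.217), Slc7a11 (0.217), the costimulatory molecule Cd86 (0.218), Plk3 (0.228) and the membrane protein Ninj1, which ruptures dying cells (0.231). Closest to Plk3 were Lmo2 (0.211), Gdf15 (0.228), Cd86 (0.251), Acod1, the itaconate-making enzyme of activated macrophages (0.262), and Nfkbie (0.270). Atf3 had other neighbours, the kinase Pim1 (0.109), the galactosyltransferase B4galt5 (0.143), Nfkb2 (0.151), the calcium pump Atp2a3 (0.157) and the nuclear factor Csrnp1 (0.160). Gdf15 and Plk3 were thus among the 5 nearest genes of each other, while Atf3 was place 104 from Gdf15 (0.376) and place 20 from Plk3 (0.343). Seen from Atf3, Gdf15 was place 641 and Plk3 place 385. The measure takes in the size of the genotype difference, by which the 3 genes were chosen, so these places follow in part from that choice. Lmo2, with 16.2 and 4.84 FPKM in Has-tKO and wildtype, was highest among wildtype in library 3, as were Gdf15 and Plk3. These are descriptions over 8 libraries that share their scaling, with no test.

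**Figure D4:**
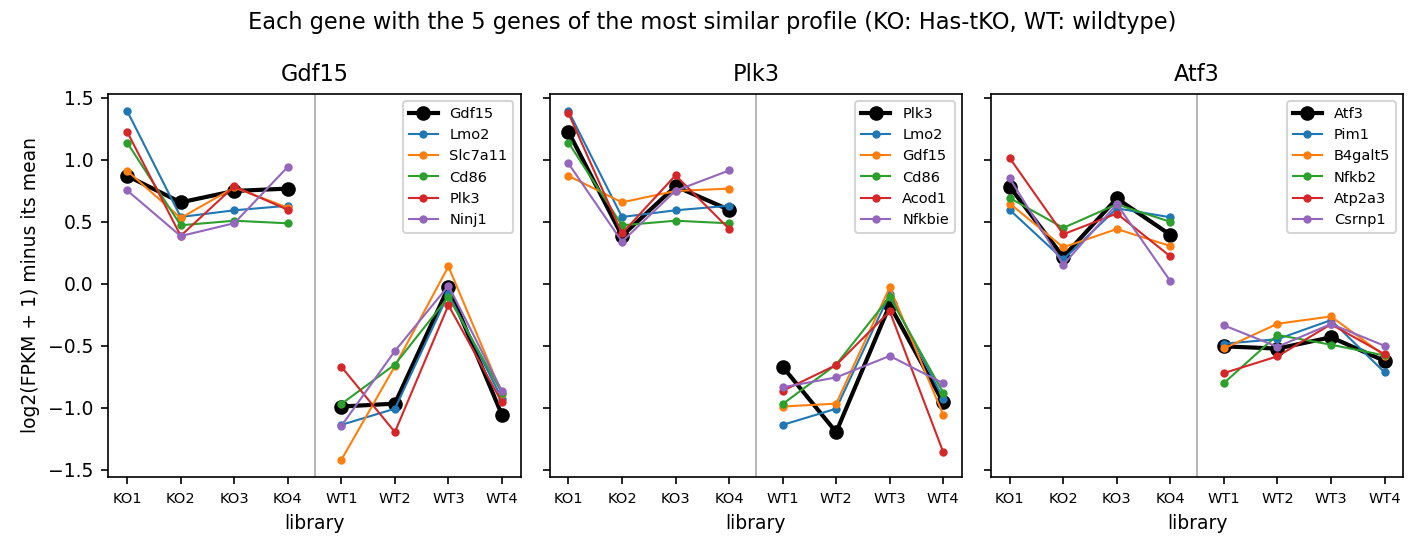
Log2(FPKM + 1) minus its mean over the 8 libraries (vertical axis) for Gdf15, Plk3 and Atf3 (thick black) and the 5 genes nearest to each, with Has-tKO libraries left of the grey line. Lines join libraries within a genotype only to guide the eye. Gdf15, Plk3 and their nearest genes are highest among wildtype in wildtype 3, while Atf3 itself is nearly level over the wildtype libraries.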

How the data were processed

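Libraries were made from 100 ng of rRNA-depleted RNA by Nextera tagmentation, which keeps no strand, per the labels' protocols. The authors deposited FPKM per locus for 8 libraries and 76557 loci, per the file headers. The submitters' processing notes name bcl2fastq, fastp, HISAT2, StringTie and DESeq2 with GRCm39 and hg38, without versions or options. No counts could be recovered: ratios of low values between libraries showed no common step, with at most 1.57% in any bin. The precision that depth gives is therefore unknown.

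Of 49868 named loci, those reaching 1 FPKM in 4 or more libraries were analysed as log2(FPKM + 1), a scale that understates changes of low genes. limma 3.58.1 in R 4.3.3 (intensity trend, two-sided, Benjamini-Hochberg over 9916 genes, threshold 0.05) compared Has-tKO with wildtype. Where a name stood on several loci, the one with the highest mean was listed. The fit was tested on simulated data, normal values with each gene's mean and residual SD, drawn independently for each library. Of 100 genes changed by a log2 of 1 it called 80, and of 100 changed by 2 it called 95. It also called 9 unchanged genes. Effects shared by the genes of a library were not simulated, so the outcome does not bear on the shifts when a library is left out. Median-ratio size factors came from 19489 loci.

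The 3 genes, the lists and the motifs were chosen with earlier results of these data known, and the motifs also with the promoter sequences in view. Named list genes are up to 5 called genes per list, or the 2 of smallest p, and all genes of the Polo-like kinase and receptor lists. Cell type markers and GDF ligands were named after their values were seen. Promoters and gene neighbours came from RefSeq on GRCm38.p6, and 3 of 3 genes matched. Replicate numbers name separate mice and were not used as pairs. Alternatives were the scaling, a pseudocount of 0.1, no filter, a mean of at least 3 FPKM, a replicate block, no trend, and leaving out libraries.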

Additional observations from a re-analysis of the deposited data

Results flagged for a closer look

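Gdf15 in wildtype 3, at 4.46 FPKM, lay far from the other 3 wildtype libraries, the gap to the nearest of them being 0.937 of the range of the group, above the 95% limit of Dixon's test for 4 samples. The summed macrophage and other myeloid markers of wildtype 3, at 698 FPKM, were set apart in the same way (0.873 of the range). In all, 22 groups of 4 libraries were examined, and chance sets apart about 1 in 20. Without wildtype 3 the log2 fold change of Gdf15 was 1.77. How the markers bear on Gdf15 in this library was not tested.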

How the results depend on the processing

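The depth is unknown, so no limit of detection can be given. The 3 log2 fold changes kept their sign under all 12 settings tried for them. As deposited the groups did not overlap for these genes, so of these settings only the scaling could have changed a sign. Gdf15 ranged from 1.31 (scaling) to 1.87 (pseudocount 0.1), Plk3 from 1.28 to 1.88 under the same settings, and Atf3 from 0.80 after scaling, which moved it by more than the spread between libraries, to 1.14. The 176 changed genes became 111 with a pseudocount of 0.1, 2 with no filter on low values (27220 loci tested) and 358 on leaving out wildtype 1 together with Has-tKO 4, and ranged from 10 to 349 with 1 library left out. The lowest count came without wildtype 4 and the highest without wildtype 1. Median-ratio scaling called 130 of the 176 again, and took the share of higher calls to 51.3%, against 89.2% unscaled. Replicate numbers did not pair the libraries: same-numbered libraries had correlations of deviations from their genotype means of -0.08, 0.31, -0.12 and -0.06. With the replicate block 147 genes changed, 18 of them in the pathway lists, and all 3 genes were called. The 19 changed genes of the pathway lists became 1 with no filter and ranged from 6 (without Has-tKO 1, and without wildtype 4) to 31 (without wildtype 1), with 12 without Has-tKO 4. The summed stromal markers, 23.3 FPKM higher in Has-tKO, differed by -29.7 FPKM after scaling and by -20.5 (without wildtype 1) to 50.4 FPKM (without wildtype 3) with 1 library left out. No other marker sum changed direction under scaling or with 1 library left out, and none passed the adjusted threshold. With 4 libraries per group the smallest possible exact p was 0.0286. The adjusted threshold could thus be met only if most of the 8 lists reached it together. The cause of these shifts was not tested.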
